A study of Mus musculus with 48 samples.

Results

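Cycloheximide, which stops ribosomes from elongating proteins, was compared with no drug in C2C12 cells sampled 3 h after they were induced to differentiate. C2C12 is an established mouse muscle precursor line, which stops dividing and forms multinucleate myotubes in low serum. The comparison rests on 6 arrays, 3 labelled as cycloheximide at 3 h and 3 labelled as untreated differentiation at 3 h, of 48 arrays in the series. They were chosen by their labels alone. The drug-treated cells were given 50 µM cycloheximide in growth medium with 20% fetal bovine serum, moved 1 h later to medium with 2% horse serum, and harvested 3 h after that move. The untreated cells had the same change of medium and the same time of harvest without the drug. The labels do not say whether the drug stayed in the medium after the change, and name no vehicle. Cells given the drug and taken at 1 h, untreated cells at 1 h, and cells in growth medium at 0 h (3 arrays each) serve below as further points of reference. The drug-treated cells at 1 h had the same dose and the same 1 h in growth medium before the move. Times are counted from the move, so harvest came 2 h after the drug was added for 1 h and 4 h after for 3 h. No drug-treated cells at 0 h are among the samples. Replicates came from growths of successive passages of the one cell line.

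When translation is blocked, a cell cannot make the short-lived proteins that shut down early genes or that bring their transcripts to be degraded, and the messages of many early genes then accumulate, an effect long known as superinduction. The block also stops nonsense-mediated decay, a pathway that removes transcripts with early stop codons only when a ribosome reads them. In myoblasts, Id proteins hold back the myogenic factor MyoD by binding the E proteins it pairs with, and differentiation needs newly made proteins, among them myogenin.

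RNA was read on Affymetrix MOE430v2 arrays, which give each probe set one level on a log2 scale, so that a difference of 1 is a change of 2-fold. The deposited levels of the drug arrays sat on a higher distribution. Array medians were 4.20 to 4.22 on the cycloheximide arrays at 3 h, against 4.0 to 4.06 on the untreated arrays at 3 h, and array means were 5.24 to 5.26 against 5.03. Over the series, array means were 5.24 to 5.26 on all 6 cycloheximide arrays and 5.02 to 5.05 on the other 42. With every drug array in the higher set, an effect of array processing cannot be told apart from the drug. All 48 arrays were therefore quantile-normalized together, and every level and difference below is on that scale unless the deposited values are named. The 18 hybridisation control probe sets read labelled RNA added at a fixed amount to each hybridisation. They averaged 9.57 with the drug and 9.65 without as deposited (a difference of -0.08), and 9.37 and 9.65 after the second normalization (-0.28). The levels are read as a gene's share among the RNAs of a sample. Whether the amount of RNA per cell changed was not measured, and these controls do not report on it. The 3' to 5' difference of the mouse Gapdh control was -0.01 with the drug and -0.07 without, and that of beta-actin 0.28 in both.

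The cells carried the markers of myoblasts in both groups. All 5 measured myoblast markers (Myod1, Myf5, Cdh15, Des and Myog) lay above the array median. None was called changed by the drug with limma, although 1 had an unadjusted p under 0.05 and 1 was called risen and 1 fallen with the replicate number as a block. All 6 measured leukocyte markers and all 4 endothelial markers lay under the median level of the genes tested. The highest leukocyte marker mean, 4.89 with the drug and 5.18 without, was still above the array medians given above. None of these markers was called with limma (2 and 0 had an unadjusted p under 0.05). Of 5 adipocyte markers 2 rose, Cebpa (1.07 ± 0.25, SE) and Fabp4 (0.29 ± 0.10), while the summed level of that list on the linear scale overlapped between the groups, from 1360 to 3240 with the drug and from 1200 to 2470 without. The call on Fabp4 was lost when any of the 6 arrays was left out. Its probe set is dim, and other dim probe sets of that gene differed by 2.36, 1.73 and 0.17. The part of such cells in the results below was not tested. No measured marker of bone and cartilage (6) or of smooth muscle (5) was called with limma (0 and 1 had an unadjusted p under 0.05, and 2 of smooth muscle were called risen with the replicate block). In RNA from whole cultures, fewer cells of one kind and less RNA per cell cannot be told apart.

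Between cycloheximide and untreated cells at 3 h the levels of 4376 of 18193 genes were called different, 24.1% of those tested. The level rose for 2352 genes (12.9%) and fell for 2024 (11.1%). The counts of list members below are to be read beside these shares. Rises were larger than falls. At least 2-fold differences were called for 629 risen and 191 fallen genes, at least 4-fold for 131 and 15, and at least 8-fold for 48 and 1. The test was limma on 1 coefficient per group, two-sided, with Benjamini-Hochberg adjustment over all genes and a call at an adjusted p under 0.05. On the deposited values 5628 genes were called risen (30.9%) and 622 fallen (3.42%), the median gene differed by 0.19 in place of -0.01, and the share of risen genes among those called was 90% in place of 53.7%. Cyclic loess gave 2980 risen and 1408 fallen genes, centring on housekeeping genes 5750 and 544, and centring on the hybridisation controls 4519 and 274. All 2352 risen genes were called risen on the deposited values too, but the upward shift there favours rises, so this is no check on them. Of the 2024 fallen genes, 622 were called fallen there and none was called risen, so no called direction turned, while the number of falls depended on the scale.

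**Figure D1:**
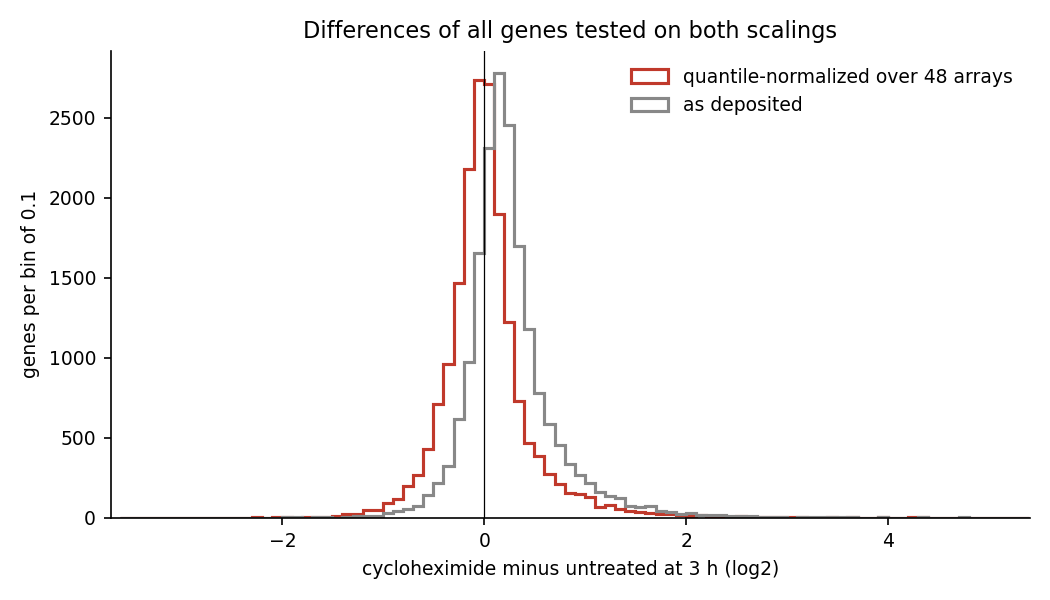
Number of genes (vertical axis) in each 0.1-wide bin of the log2 difference between cycloheximide and untreated cells at 3 h (horizontal axis), for 18193 genes after quantile normalization (red) and as deposited (grey). The deposited differences are shifted to the right, with a median of 0.19 against -0.01, and both histograms have a longer tail of risen than of fallen genes.

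The 20 risen genes of largest difference had differences of 3.94 to 5.17. They were taken from the called genes whose 3 cycloheximide arrays all lay above all 3 untreated arrays, as 20.5% of all genes did. The reverse held for 20.8%, and 41.3% of genes had no overlap between the groups. Cebpd, a leucine-zipper transcription factor induced in inflammation and early fat cell differentiation, had the largest rise. It read 11.89, 11.46 and 11.77 on the cycloheximide arrays, against 6.64, 6.56 and 6.39 on the untreated arrays, a 36.1-fold difference (5.17 ± 0.21, adjusted p = 1.12e-20). The groups lay far apart, with a spread within either that was small beside the gap. Nfil3, a repressor in the circadian and cytokine responses, read 11.54, 11.55 and 11.41 with the drug and 6.74, 6.23 and 6.21 without (5.11 ± 0.21, 34.5-fold). All 20 genes were also called risen on the deposited values, where the shift favours rises and their differences were 3.98 to 5.17.

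The AP-1 family, basic leucine-zipper factors that pair as Fos, Jun, Atf and Maf proteins, rose widely. Of 14 measured members 10 rose and none fell, with a median difference of 1.34 beside -0.01 over all genes. Fos read 11.44, 10.55 and 11.11 on the cycloheximide arrays, against 7.14, 7.08 and 7.03 on the untreated arrays, 15.5-fold (3.95 ± 0.29, adjusted p = 1.25e-13). Its untreated arrays agreed within 0.11, and every drug array stood more than 3 units above them. Atf3, a stress-induced member that represses its own promoter, rose by 4.28 ± 0.22, with 9.21, 9.10 and 9.51 on the cycloheximide arrays and 4.66, 4.99 and 5.35 on the untreated arrays. Junb rose by 2.87 ± 0.40, Jun, the main partner of Fos, by 2.10 ± 0.12, and Maff, a small Maf protein without an activation domain, by 2.42 ± 0.17. The Junb arrays were the most spread of these, at 10.89, 10.28 and 9.53 with the drug and 7.53, 7.63 and 6.96 without, and still did not overlap. The members not called had differences from -0.04 to 0.42.

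Other early genes, which growth factors and serum turn on within minutes in many cells, followed. Of 16 measured, 12 rose and none fell, with a median of 1.89. Csrnp1, a nuclear protein that axin induces, rose by 3.68 ± 0.15. Ccn2, a secreted matrix protein that Yap and TGF-beta induce, read 13.70, 13.65 and 13.70 with the drug and 11.02, 10.76 and 10.85 without (2.81 ± 0.23). Nr4a1, an orphan nuclear receptor, rose by 2.78 ± 0.33, Ier3 by 2.61 ± 0.21 and Ier2 by 2.55 ± 0.24. Egr1, a zinc-finger factor, was already at 11, 11.23 and 11.23 in untreated cells and stood at 13.17, 12.77 and 13.26 with the drug, 3.76-fold higher (1.91 ± 0.16). The drug arrays for all of these lay above the untreated ones.

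Promoters of some of these genes are shown because they hold the cyclic AMP response element (CRE), the palindrome TGACGTCA that CREB and ATF proteins bind, or its core. In RefSeq's promoter windows on GRCm38.p6, which run over 300 bases around each gene's start, the CRE was found on either strand in 38 of 500 genes risen at least 2-fold that have a window (7.6%), beside 422 of 14452 of all measured genes (2.92%). The core TGACG, which the full element contains, was in 40.8% and 30.0%. The AP-1 element TGANTCA was in 6.0% and 7.54%, the NF-kB pattern (GGG and CC with any 5 bases between) in 74.2% and 66.3%, TATAAA in 10.2% and 11.5%, and the serum response element (CArG) in 2.6% and 1.58%. None of the 15 of the top 20 risen genes with a window held a full CRE, 8 held the core and 10 the NF-kB pattern. Of the 16 of the top 20 fallen genes with a window none held a full CRE, 6 held the core and 13 the NF-kB pattern. Below are the windows of Dusp1, Errfi1 and Maff, early genes and feedback inhibitors described in this and the next paragraphs that hold the full CRE, and that of Fos with its cores, each read along the gene's own strand with the element in capitals. The element began 143, 51 and 29 bases before the start in Dusp1, Errfi1 and Maff, and the cores of Fos 129 and 66 bases before it. RefSeq lists 2 windows for Errfi1 and 3 for Maff, of which the first with the element is given.
Dusp1, chr17:26508423-26508722, minus strand: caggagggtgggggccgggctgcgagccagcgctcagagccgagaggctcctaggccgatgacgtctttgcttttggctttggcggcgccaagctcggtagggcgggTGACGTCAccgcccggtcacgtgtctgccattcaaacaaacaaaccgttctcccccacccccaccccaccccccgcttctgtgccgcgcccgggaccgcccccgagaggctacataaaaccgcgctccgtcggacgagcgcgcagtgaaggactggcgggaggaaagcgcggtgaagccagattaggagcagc
Errfi1, chr4:150854820-150855119, plus strand: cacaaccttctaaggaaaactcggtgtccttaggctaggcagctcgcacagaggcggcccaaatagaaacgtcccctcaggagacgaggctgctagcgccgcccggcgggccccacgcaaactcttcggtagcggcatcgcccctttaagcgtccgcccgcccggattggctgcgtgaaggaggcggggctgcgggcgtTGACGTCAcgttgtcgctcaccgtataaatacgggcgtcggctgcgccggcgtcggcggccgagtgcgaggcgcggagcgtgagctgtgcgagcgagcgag
Maff, chr15:79347270-79347569, plus strand: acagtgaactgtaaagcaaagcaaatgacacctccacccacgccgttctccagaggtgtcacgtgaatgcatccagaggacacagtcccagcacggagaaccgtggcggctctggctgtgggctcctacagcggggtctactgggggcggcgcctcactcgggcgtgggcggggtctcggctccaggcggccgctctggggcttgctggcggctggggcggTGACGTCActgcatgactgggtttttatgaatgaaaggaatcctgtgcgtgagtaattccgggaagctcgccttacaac
Fos, chr12:85473640-85473939, plus strand: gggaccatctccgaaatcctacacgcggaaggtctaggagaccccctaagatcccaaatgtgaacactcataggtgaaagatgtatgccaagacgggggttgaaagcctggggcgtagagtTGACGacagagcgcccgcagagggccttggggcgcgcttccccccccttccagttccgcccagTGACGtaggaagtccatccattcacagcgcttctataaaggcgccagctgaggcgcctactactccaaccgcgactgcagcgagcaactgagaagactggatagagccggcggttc
A match is a description of letters in this window and says nothing of binding in these cells.

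Inhibitors of growth-factor and stress kinases, many of them early genes themselves, mostly rose. Of 17 measured, 11 rose and 1 fell (median 0.82). Dusp1, a phosphatase that removes the activating phosphates of MAP kinases, read 12.44, 12.11 and 12.57 with the drug and 9.39, 9.24 and 9.42 without, 8.14-fold higher (3.03 ± 0.20). Its relative Dusp2 rose by 4.08 ± 0.20, and Errfi1, which binds and inhibits the EGF receptor, by 2.72 ± 0.23. Dusp16 and Dusp8, which act on JNK and p38, rose by 1.87 ± 0.12 and 1.73 ± 0.13. Dusp4, another nuclear MAP kinase phosphatase, fell, with 6.30, 5.88 and 6.49 on the cycloheximide arrays and 7.36, 7.53 and 7.47 on the untreated arrays (-1.23 ± 0.19). The Dusp family thus held both a 17.0-fold higher member, Dusp2, and a 2.35-fold lower one, Dusp4.

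Messages for proteins that direct mRNA decay were mostly higher. Of 10 measured, 7 rose and 1 fell (7 and 2 with the replicate block, 5 and 2 without the third cycloheximide array). Zfp36, or tristetraprolin, which binds AU-rich elements in the messages of cytokines and early genes, read 9.56, 8.89 and 9.28 with the drug and 7.10, 7.10 and 6.45 without (2.36 ± 0.22). Noct, a circadian deadenylase relative, rose by 3.94 ± 0.15, Zc3h12c, a regnase relative, by 2.19 ± 0.18, and Btg2, which binds the Ccr4-Not deadenylase, by 1.96 ± 0.34. Zfp36l2 rose by 1.65 ± 0.10 on its brightest probe set, while its other probe sets, both dim, differed by -0.36 and -0.24. Btg1 read 9.51, 10.19 and 10.81 with the drug and 10.72, 10.83 and 10.97 without (-0.67 ± 0.19). Its groups overlapped, and without the first cycloheximide array the difference was -0.34 and not called (adjusted p = 0.183).

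All 4 measured Gadd45-type stress genes rose. Gadd45g, Gadd45b and Gadd45a, small proteins that bind stress kinase kinases and Pcna, rose by 4.36 ± 0.20, 3.41 ± 0.21 and 2.54 ± 0.27, and Ppp1r15a, which brings a phosphatase to the initiation factor eIF2, by 1.39 ± 0.27. Gadd45g reached 13.47, 13.35 and 12.91 with the drug, against 9.03, 8.91 and 8.73 without. Of 13 measured Kruppel-like zinc-finger factors 8 rose and 1 fell (10 and 2 with the replicate block), with a median of 1.02. Klf10, an early TGF-beta gene, rose by 3.11 ± 0.21, Klf6 by 2.39 ± 0.21 and Klf2 by 2.15 ± 0.17. Klf3, a repressor that counters activating family members, fell by 1.76 ± 0.18 on the log2 scale, with 7.66, 7.42 and 8.07 on the cycloheximide arrays and 9.53, 9.24 and 9.65 on the untreated arrays, and its dimmer probe sets differed by -1.51 to 0.22.

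Myc, the growth-promoting factor that pairs with Max, was the 1 risen member of its network. It read 10.77, 10.67 and 11.01 on the cycloheximide arrays, against 6.84, 6.71 and 6.85 on the untreated arrays, 16.2-fold higher (4.02 ± 0.20, adjusted p = 1.83e-18). Of the other 10 measured members none rose and 4 fell, while on the deposited values 4 of the 11 rose and 3 fell. Mxd4, Mxi1 and Mnt, repressors that compete with Myc for Max, differed by -1.25 ± 0.16, -1.07 ± 0.13 and -0.74 ± 0.10. Odc1, the first enzyme of polyamine synthesis and a textbook Myc target, rose by 0.93 ± 0.10. Its list did not follow as a whole, with 2 of 7 polyamine genes risen and 1 fallen (median 0.05). Of 27 ribosome biogenesis genes 1 rose and 4 fell (6 and 0 on the deposited values). Called in either direction were 42.9% and 18.5% of these lists, beside 24.1% of all genes. Whether Myc targets as a set followed Myc was not tested. The drug arrays for Mxd4 were at 7.55, 7.73 and 7.49, and the untreated ones at 8.84, 8.87 and 8.81.

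**Figure D2:**
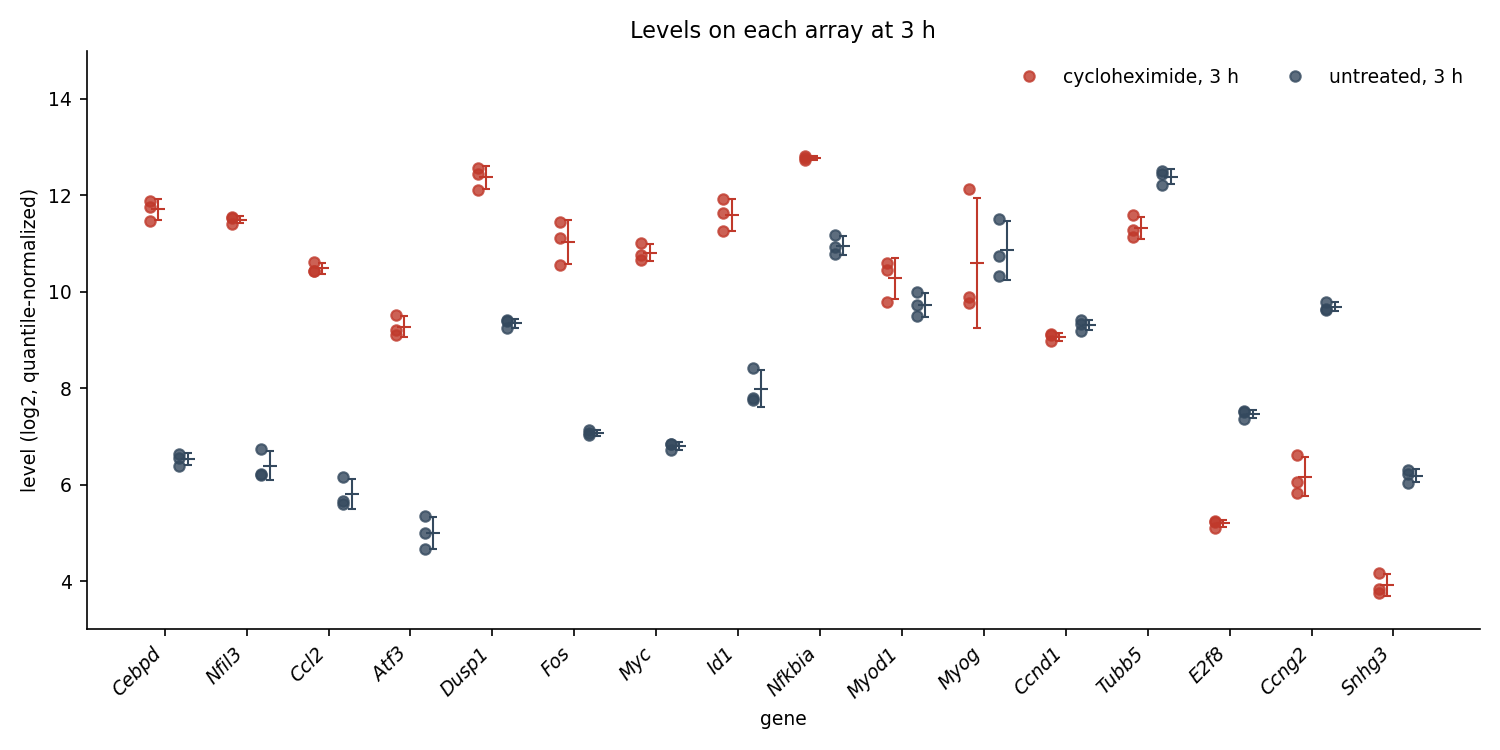
Levels (log2, quantile-normalized) of 16 genes on each of the 3 cycloheximide arrays (red) and 3 untreated arrays (dark) at 3 h, with the mean and SD of 3 arrays drawn beside the points. The groups are far apart for the genes from Cebpd to Nfkbia, overlap for Myod1 and Myog, lie 0.24 apart for Ccnd1, and are reversed in order for Tubb5, E2f8, Ccng2 and Snhg3.

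Genes that glucocorticoids induce in many tissues had the highest median difference of the 44 lists compared. The lists were chosen with earlier results of these data known. Cebpd, Nfil3, Sgk1, Per1 and Tsc22d3 are also among the top 20 risen genes, so the rank is a description. Of 11 measured 10 rose and none fell, with a median of 3.53. Beside Cebpd and Nfil3, Sgk1, a kinase that raises ion transport, read 12.57, 12.61 and 13.12 with the drug and 8.31, 8.54 and 8.59 without (4.29 ± 0.18, 19.6-fold). Tsc22d3, also called Gilz, an inhibitor of AP-1 and NF-kB, rose by 4.15 ± 0.19 (4.08 on another bright probe set and 0.08 on a dimmer one), and Klf9 by 2.26 ± 0.30. Per1, a repressor of the circadian clock that also answers to glucocorticoids, read 9.96, 9.72 and 9.16 with the drug and 5.33, 5.58 and 5.27 without (4.22 ± 0.20). The clock list as a whole had 6 of 18 members risen and none fallen (12 risen on the deposited values). That is 33.3% risen, beside 12.9% of all genes. Bhlhe40, a clock repressor, rose by 1.93 ± 0.19 and Nr1d1, another, by 1.43 ± 0.25. Arrdc2, an arrestin relative, had one of the larger rises (4.39 ± 0.20), with 8.77, 7.94 and 7.47 against 3.83, 3.71 and 3.46.

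NF-kB subunits and the proteins that restrain them rose together. Of 13 measured 10 rose and none fell (median 1.26). Nfkbia, the inhibitor IkB-alpha, read 12.73, 12.78 and 12.82 with the drug and 10.79, 10.93 and 11.17 without (1.81 ± 0.17, 3.52-fold). Its other bright probe sets gave larger differences of 2.64, 2.95 and 3.17, and a dimmer one 1.09. Tnfaip3, the ubiquitin-editing protein A20, rose by 3.25 ± 0.17, Nfkbie by 2.23 ± 0.26, and the subunits Rel and Relb by 2.52 ± 0.11 and 1.92 ± 0.20. Rel stood at 5.96, 6.35 and 6.13 with the drug and at 3.64, 3.66 and 3.59 without, low levels on both sides.

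Secreted signals changed as well. Of 16 measured cytokines, chemokines and adhesion molecules 10 rose and 1 fell, and with only genes of a mean of at least 5 kept, 5 rose and 1 fell. The monocyte-attracting chemokines Ccl7 and Ccl2 had the third and the fourth largest rise of the top 20. Ccl2 read 10.43, 10.43 and 10.62 on the cycloheximide arrays, against 5.67, 5.60 and 6.17 on the untreated arrays (4.68 ± 0.26, 25.7-fold), and Ccl7 rose by 4.77 ± 0.35. Il6, a cytokine that muscle also releases, was at 5.66, 5.59 and 6.51 with the drug and at 3.23, 3.19 and 3.07 without (2.76 ± 0.24), and Lif, of the same family, rose by 1.54 ± 0.17. Cxcl12, the ligand of Cxcr4 that guides muscle precursors, fell, with 7.70, 7.77 and 7.47 with the drug and 9.65, 9.31 and 9.20 without (-1.74 ± 0.24). Of 16 growth factors, prostaglandin enzymes and vasoactive peptides 8 rose and 1 fell (2 fell with the replicate block). Edn1, the precursor of the vasoconstrictor endothelin, rose by 4.38 ± 0.14, Adm, the precursor of the vasodilator adrenomedullin, by 4.17 ± 0.31 on a probe set of the kind that can cross-hybridise, and Ptgs2, which makes prostaglandin precursors, by 2.30 ± 0.47. Pdgfa fell by 1.36 ± 0.12 on the log2 scale.

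Feedback inhibitors of cytokine receptors were also called. Of 8 SOCS family members 4 rose and 1 fell, and on the deposited values 5 rose and none fell. Cish and Socs2, which damp the growth hormone and related receptors, each rose by 1.91, with SE 0.17 and 0.13. Socs3, which damps Il6 and Lif receptors, read 9.75, 9.75 and 10.42 with the drug and 8.50, 8.84 and 9.23 without (1.12 ± 0.25, adjusted p = 0.000762). Irf1, an interferon-regulated factor, rose by 1.50 ± 0.14, and 5 of 17 measured interferon response genes rose in all (10 on the deposited values). That is 29.4% risen, beside 12.9% of all genes.

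**Figure D3:**
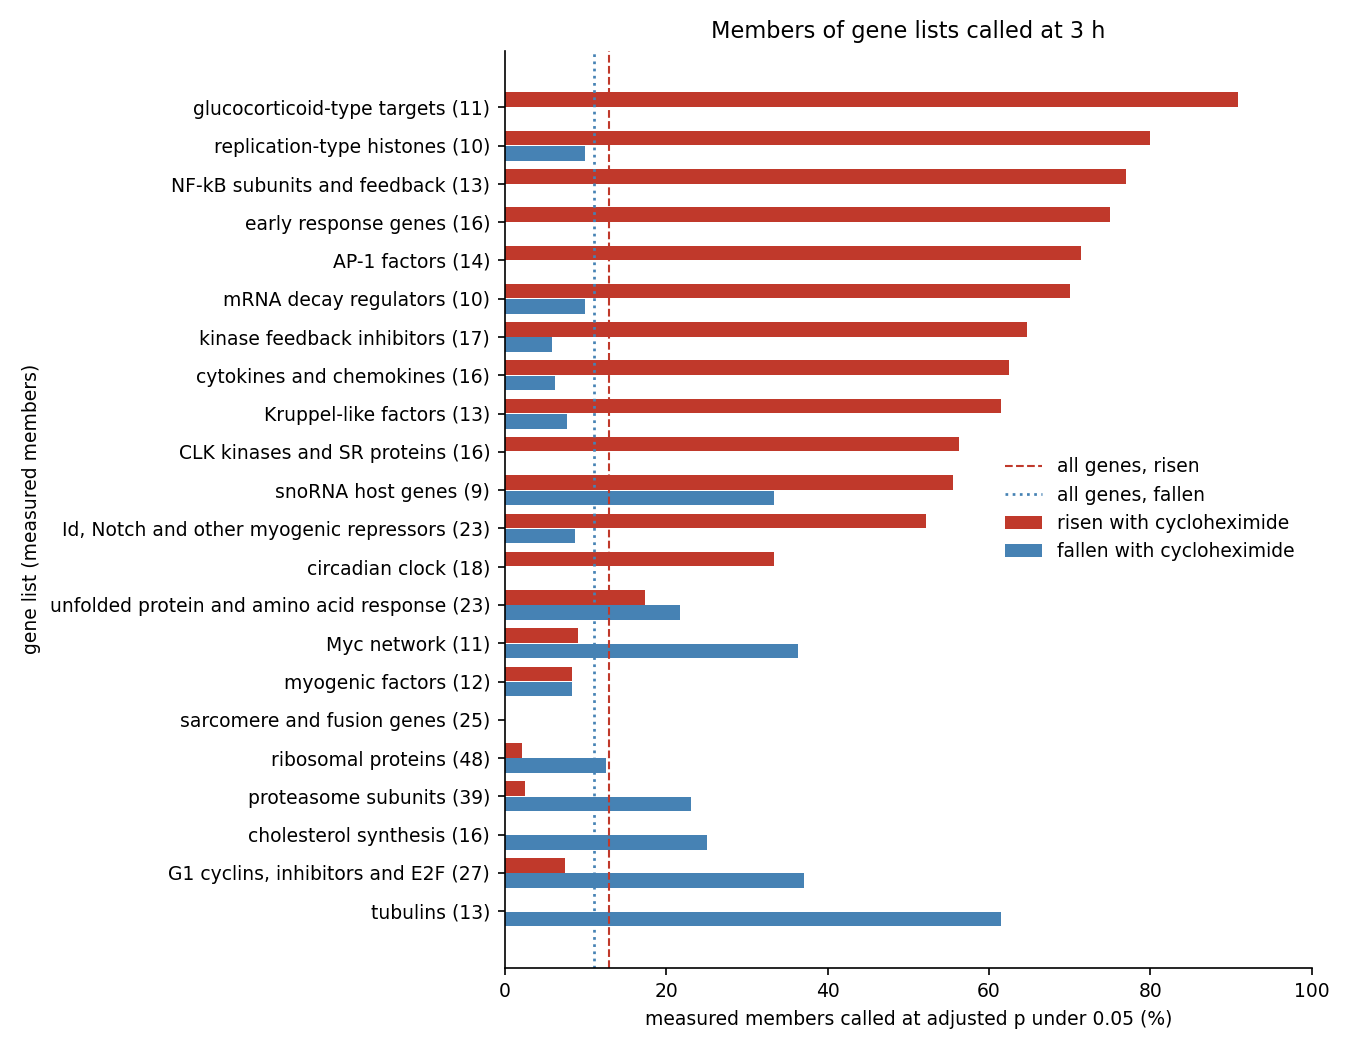
Share (percent) of the measured members of gene lists called risen (red) or fallen (blue) with cycloheximide at 3 h, with the number of measured members in brackets. Dashed and dotted lines mark the shares over all genes tested, 12.9% risen and 11.1% fallen. Lists of early, NF-kB, glucocorticoid-type and histone genes have far more risen members, tubulins and G1 cyclins more fallen ones, and sarcomere genes none.

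Of 23 measured Id, Notch and related repressors of myogenesis 12 rose and 2 fell. Id1, which binds the E-protein partners of MyoD, read 11.92, 11.63 and 11.26 on the cycloheximide arrays, against 8.43, 7.79 and 7.75 on the untreated arrays, 12.2-fold higher (3.61 ± 0.32, adjusted p = 2.37e-11). Id4, Id3 and Id2 rose by 3.43 ± 0.17, 2.61 ± 0.27 and 2.01 ± 0.31. All 4 Id genes had every drug array above every untreated one. Hey1, a Notch-induced repressor, read 6.43, 5.97 and 5.70 with the drug and 7.24, 6.96 and 7.12 without (-1.07 ± 0.19).

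Myod1, the master myogenic factor, read 10.60, 10.45 and 9.79 with the drug and 9.99, 9.72 and 9.49 without. That difference of 0.55 ± 0.27 was not called (adjusted p = 0.139), but with the replicate number as a block it was (adjusted p = 0.000641), and without the third cycloheximide array the adjusted p was 0.0445. Myog, or myogenin, stood at 12.14, 9.77 and 9.89 with the drug and at 11.52, 10.32 and 10.75 without (-0.26 ± 0.64, adjusted p = 0.816). Its first array was the highest in both groups, and the groups overlapped. Myf5 differed by 0.27 ± 0.36 and Mef2c by -0.31 ± 0.44, neither called. Of 12 measured myogenic factors 1 rose, Six4, a homeobox factor that acts upstream of the myogenic genes (1.37 ± 0.17), and 1 fell, Mef2d (-0.79 ± 0.11), with 2 risen under the replicate block. That is 16.7% of these factors called, beside 24.1% of all genes. For Mef2d the other probe sets differed by -0.39 and -0.07. None of 25 sarcomere and fusion genes was called with limma, and none had an unadjusted p under 0.05, with differences from -0.60 to 0.41 (1 fell with the replicate block and 1 with arrays centred on their medians).

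Messages tied to splicing and to RNA surveillance were also among the risen. Of 16 measured CLK kinases and SR proteins 9 rose and none fell (median 0.71). CLK kinases phosphorylate SR splicing proteins, and several genes of both families make splice forms that nonsense-mediated decay removes. Clk4 read 9.14, 9.22 and 9.20 with the drug and 7.40, 7.21 and 7.77 without (1.73 ± 0.25). Clk1 and Clk2 rose by 1.47 ± 0.41 and 1.07 ± 0.10, and Srsf4, an SR protein, by 1.03 ± 0.13. Of 10 measured factors of the decay pathway itself 3 rose, among them the endonuclease Smg6 (0.92 ± 0.11), and none fell, with 5 risen under the replicate block and 6 on the deposited values. That is 30% called, beside 24.1% of all genes.

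Hosts of small nucleolar RNAs are non-coding or poorly translated genes whose spliced transcripts are known targets of nonsense-mediated decay. Of 9 measured 5 rose and 3 fell, and with the mean over a gene's probe sets 3 rose and 4 fell. Snhg12 read 10.98, 10.45 and 10.39 on the cycloheximide arrays and 8.47, 8.26 and 8.56 on the untreated arrays (2.18 ± 0.19). Snhg1 rose by 1.54 ± 0.22, Snhg5 by 0.98 ± 0.17 and Gas5 by 0.68 ± 0.16, each on its brightest probe set. Snhg3 fell, with 3.84, 3.76 and 4.16 with the drug and 6.03, 6.30 and 6.23 without (-2.27 ± 0.23), and so did Dancr (-1.81 ± 0.25) and, outside the list, Snhg4 (-2.22 ± 0.26). The probe sets of Snhg3 and Dancr are dim, with means of 5.05 and 5.34 over the 6 arrays. For Gas5 the brighter probe sets differed by 0.68 and 0.53 and the dim ones by -2.38 and -2.0. For Snhg1 the values were 1.54, 1.59 and 1.28 on bright probe sets and -1.54 and -0.35 on dim ones, so that the direction for these hosts depended on the probe set.

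Replication-type histone genes, whose messages normally lack a poly(A) tail and are degraded when DNA synthesis stops, were higher. Of 10 measured 8 rose and 1 fell (median 1.33), and 2 rose and none fell among those of a mean of at least 5. H1f2, a linker histone, read 12.19, 12.38 and 12.43 with the drug and 10.08, 9.89 and 9.68 without (2.45 ± 0.20). H2bc18 and H3c4, core histones, rose by 3.57 ± 0.19 and 1.73 ± 0.17. Probe sets of near-identical histone genes may share signal.

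Among the fallen genes the 20 of largest difference had differences from -3.52 to -1.80. All 20 were also called fallen on the deposited values, from -3.13 to -1.53. Ccng2, an atypical cyclin that FoxO factors induce and that accompanies cell cycle arrest, had the largest fall of all. It read 5.83, 6.05 and 6.62 on the cycloheximide arrays, against 9.63, 9.64 and 9.79 on the untreated arrays, 11.5-fold lower (-3.52 ± 0.23, adjusted p = 4.79e-15). Snn, a small membrane protein, fell by 2.67 ± 0.13 on the log2 scale. Lgr4, a receptor for R-spondins that raises Wnt signalling, read 6.38, 6.40 and 6.31 with the drug and 9.06, 8.62 and 8.49 without (-2.36 ± 0.17), and the semaphorins Sema4c and Sema7a differed by -2.27 ± 0.16 and -1.95 ± 0.19. Cemip2, a cell-surface hyaluronidase, fell by 2.44 ± 0.19 on the log2 scale, Mex3a, an RNA-binding ubiquitin ligase, by 2.24 ± 0.16, and Gper1, a membrane receptor that oestrogen activates, by 1.91 ± 0.20.

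On the quantile-normalized scale the cell cycle genes called were mostly those of G1 and not those of replication or mitosis. The contrast with replication was not seen on the deposited values. Of 27 measured G1 cyclins, inhibitors and E2F factors 2 rose and 10 fell, and on the deposited values 3 rose and 5 fell. E2f8, an atypical repressor E2F, read 5.23, 5.11 and 5.25 with the drug and 7.53, 7.51 and 7.37 without (-2.27 ± 0.13), and E2f3, an activator, differed by -1.25 ± 0.14. Ccnd2, a D-type cyclin, read 4.60, 4.24 and 4.53 with the drug and 5.95, 5.82 and 5.73 without (-1.38 ± 0.23). That probe set is dim (mean 5.14), and the 7 probe sets of Ccnd2 differed by -1.38 to -0.01. Ccnd1, the main D-type cyclin of myoblasts, did not pass the test, at 9.11, 8.98 and 9.13 with the drug and 9.41, 9.18 and 9.33 without (-0.24 ± 0.20), and its sign turned with the scale (0.01 as deposited). Of 25 DNA replication genes 2 rose and 1 fell (7 and 0 on the deposited values), and of 23 mitotic genes none was called with limma (2 had an unadjusted p under 0.05, and 2 fell with the replicate block), with differences from -0.62 to 0.20. The difference between these lists was not tested.

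p53 targets were split. Of 17 measured 4 rose and 4 fell, with 8 risen and 4 fallen on the deposited values. That is 47.1% called, beside 24.1% of all genes. Sesn1, a stress protein that restrains mTOR, and the kinase Plk2 rose by 1.61 ± 0.17 and 1.60 ± 0.17, while Zmat3, an RNA-binding protein, and Ccng1 differed by -1.18 ± 0.14 and -1.08 ± 0.20. Cdkn1a, the inhibitor p21 that MyoD also induces, read 11.44, 10.27 and 10.10 with the drug and 11.34, 10.58 and 10.81 without (-0.31 ± 0.36), with overlapping groups and no call. Mdm2, which degrades p53, read 8.84, 8.84 and 8.72 with the drug and 8.52, 8.24 and 8.42 without. That difference of 0.41 ± 0.16 was just not called (adjusted p = 0.0616), and was called with the replicate block (adjusted p = 0.0393) and on the deposited values (0.66). Among Bcl2 family members Mcl1, a short-lived survival protein, rose by 1.60 ± 0.08 (0.67 to 1.48 on its other probe sets) and Bok, a pro-death relative, fell by 1.33 ± 0.20 on the log2 scale.

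Most tubulin messages fell. Tubulin is the subunit of microtubules, and its messages are degraded during translation when free subunits are in excess. Of 13 measured genes 8 fell and none rose (median -0.62), with 1 risen under the replicate block and 2 risen on the deposited values. Counts of 8 fallen also came from each of the other planned scalings, and 5 fell with the arrays centred on the hybridisation controls. Tubb5, a main beta-tubulin, read 11.14, 11.59 and 11.28 on the cycloheximide arrays, against 12.45, 12.51 and 12.22 on the untreated arrays (-1.06 ± 0.13), and -1.96 on its other probe set. Tubb2b read 8.13, 8.05 and 9.26 with the drug and 9.86, 9.84 and 10.01 without (-1.42 ± 0.23), and Tubb4b differed by -1.18 ± 0.20. Near-identical tubulin genes may share signal.

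The unfolded protein and amino acid response did not move as one group. Of 23 measured 4 rose and 5 fell, with 6 and 3 on the deposited values. That is 39.1% called, beside 24.1% of all genes. Atf4, the factor made when eIF2 is phosphorylated, read 13.07, 12.98 and 12.87 with the drug and 10.91, 10.94 and 11.03 without (2.01 ± 0.12, 4.03-fold). Its targets Ddit4, an inhibitor of mTOR, and Ddit3, or CHOP, rose by 2.79 ± 0.18 and 2.18 ± 0.18. Among genes of the endoplasmic reticulum branch, Dnajb9, a chaperone partner, read 6.92, 6.47 and 7.14 with the drug and 8.45, 8.33 and 8.69 without (-1.65 ± 0.25), while Herpud1, which helps dispose of proteins there, and Xbp1, a transcription factor of the branch, differed by -1.14 ± 0.14 and -0.75 ± 0.16. For Ddit3 a second, dim probe set differed by -0.89.

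For sterol, ribosome and proteasome genes the counts depended on the scale. Of 16 cholesterol synthesis genes 4 fell and none rose (1 fell on the deposited values, and 2 without the first cycloheximide array or the second untreated array), led by Sqle, squalene epoxidase, at 7.44, 7.94 and 8.11 with the drug and 9.24, 9.49 and 9.02 without (-1.42 ± 0.17). Of 48 ribosomal protein genes 1 rose and 6 fell. That list turned with the scale, with 1 risen and 31 fallen under median centring and 14 risen and 4 fallen under cyclic loess. Its largest difference was that of Rpl12, on its one single-gene probe set, at 4.28, 4.68 and 4.51 with the drug and 6.42, 6.61 and 6.79 without (-2.11 ± 0.21). That probe set is dim, with a mean of 5.55 over the 6 arrays, while untreated member means of the list reached 14.13. Of 39 proteasome subunits 1 rose and 9 fell (2 and 2 on the deposited values, 5 fallen without the first cycloheximide array). Of 12 heat shock genes 1 rose and 1 fell, of 19 cytosolic tRNA synthetases 1 rose and 2 fell, and of 25 matrix genes 5 rose and 3 fell. Called in either direction were 25% of the cholesterol, 14.6% of the ribosomal protein and 25.6% of the proteasome genes, beside 24.1% of all genes. The shares were 16.7% for heat shock genes, 15.8% for tRNA synthetases and 32% for matrix genes. For the matrix genes 1 to 5 rose when a single array was left out, and the tRNA synthetases had 4 risen and 0 fallen on the deposited values.

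To place the response in time, the effect at 3 h was set beside the effect at 1 h, which uses other arrays. At 1 h 805 genes rose (4.42%) and 429 fell (2.36%), 1234 in all (6.78%), and with the replicate block 1980 were called. On the deposited values 4395 rose and 76 fell at 1 h. Of the 2352 genes risen at 3 h, 653 had risen at 1 h, which is 27.8% of the list at 3 h and 81.1% of the list at 1 h. Of the 2024 fallen, 246 had fallen at 1 h (12.2% and 57.3%). Opposite calls were rare, with 1 gene risen at 3 h and fallen at 1 h and 6 the other way round. The change of the effect was itself tested as an interaction, and it was called for 888 genes (4.88%), 549 with a higher (3.02%) and 339 with a lower effect at 3 h (1.86%) (1468 in all with the replicate block). Of the genes risen at 3 h, 537 had a called larger effect at 3 h and 2 a smaller one. Of the fallen genes 323 had a called more negative effect at 3 h and none a less negative one. Both lists were picked by the difference at 3 h, which the interaction contains, so this lean is a description.

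Many of the largest differences at 3 h were smaller at 1 h. The top risen and top fallen genes were chosen by their difference at 3 h, which the interaction contains. Counts of them by the interaction are therefore a description. All 20 top risen genes had a called larger effect at 3 h, and 19 were also called at 1 h. Slc10a6, a transporter of sulphated steroids, was the exception, with 5.01, 4.61 and 4.82 on the cycloheximide arrays at 1 h and 4.33, 4.32 and 4.40 on the untreated arrays at 1 h, against 8.64, 8.43 and 8.83 on the cycloheximide arrays at 3 h and 4.43, 4.23 and 4.39 on the untreated ones. Its effect was larger at 3 h by 3.82 ± 0.22 (adjusted p = 1.38e-15). Maff and Nr4a1 were not called at 1 h (0.11 and -0.03), when the untreated cells themselves stood high, with means of 6.98 and 9.94 at 1 h and of 6.02 and 6.90 at 3 h. The drug-treated mean of Cebpd went from 8.51 at 1 h to 11.71 at 3 h. That of Fos was 11.25 and then 11.03, while its untreated mean went from 8.67 to 7.08. Bhlhe40 was at 9.39 and 9.41 with the drug and at 8.43 and 7.48 without. For other genes no change of the effect was called. Zfp36 differed by 2.75 at 1 h, Socs3 by 2.14 and Clk1 by 2.48, beside 2.36, 1.12 and 1.47 at 3 h, with changes that missed the threshold (adjusted p = 0.717, 0.0985 and 0.489).

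Fewer of the top falls were called at 1 h. Of the 20 top fallen genes 7 were called fallen at 1 h, 1 was called risen, and 19 had a called more negative effect at 3 h. Lgr4 differed by -0.04 at 1 h and -2.36 at 3 h. Sema4c was the gene with the opposite call, higher by 0.54 at 1 h, when it read 7.75, 7.96 and 8.15 with the drug and 7.28, 7.20 and 7.75 without, and lower by 2.27 at 3 h (a difference of -2.27). The change of its effect was -2.81 ± 0.23 (adjusted p = 5.35e-11). None of the 13 tubulins was called at 1 h with limma (1 had an unadjusted p under 0.05, median -0.04), and for 6 of them the effect was more negative at 3 h.

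**Figure D4:**
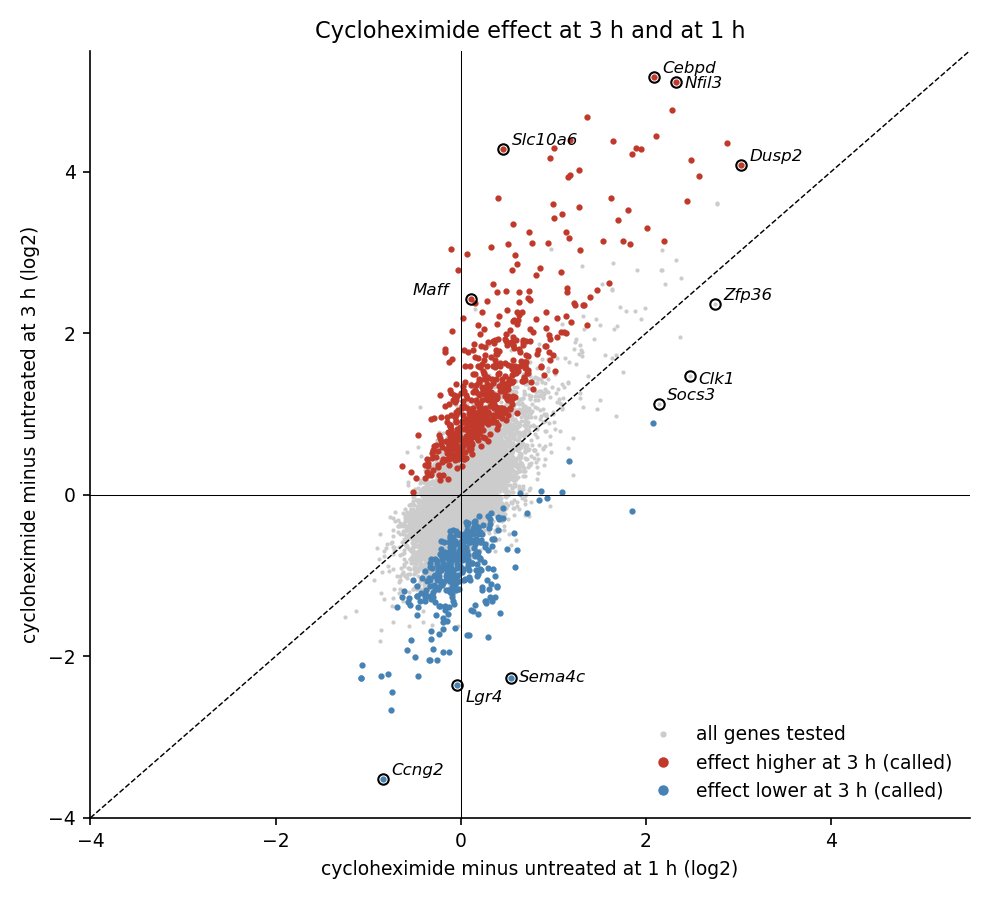
Effect of cycloheximide at 3 h (vertical axis, log2) against its effect at 1 h (horizontal axis, log2), 1 point per gene, with the 549 genes of a called higher effect at 3 h in red, the 339 of a called lower effect in blue, and all 18193 in grey. The dashed line marks equal effects. Cebpd and Nfil3 lie far above it, Zfp36, Socs3 and Clk1 below it without a call, and Lgr4 and Sema4c were called fallen at 3 h and not at 1 h.

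The comparisons with 0 h ask where the treated cells stood against cells before the change of medium. They share arrays with the comparison above, so values are given side by side. Cycloheximide at 3 h against 0 h gave 2483 risen and 2414 fallen genes (26.9% called, and 5367 and 784 on the deposited values), and untreated cells at 3 h against 0 h gave 47 and 55 (0.561%, and 389 in all with the replicate block). None of the 20 top risen and 20 top fallen genes was called between untreated cells at 3 h and 0 h. Against 0 h the top risen genes differed by 3.77 to 5.38 in drug-treated cells at 3 h and by -0.67 to 0.56 in untreated cells at 3 h. Id1 was called both ways. It was higher than at 0 h with the drug (1.96 ± 0.32) and lower without (-1.65 ± 0.32), with 9.99, 9.73 and 9.21 at 0 h. Id3 behaved likewise (1.17 ± 0.27 with the drug and -1.45 ± 0.27 without), and so did Bhlhe40 (1.07 ± 0.19 and -0.86 ± 0.19). Gadd45b and Clk4 were higher than at 0 h in both, by 4.40 ± 0.21 and 2.79 ± 0.25 with the drug and by 0.99 ± 0.21 and 1.06 ± 0.25 without.

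For most of the large changes the drug-treated mean lay outside the range of untreated means at any time. Of the 629 genes risen at least 2-fold, 605 (96.2%) had a mean above the highest of the 14 untreated groups, beside 18.1% of all genes, and of the 191 fallen at least 2-fold 148 (77.5%) had a mean below the lowest, beside 23.4%. All 20 top risen and all 20 top fallen genes were outside. Since the untreated cells at 3 h are 1 of the 14 groups and also chose these genes, the shares are a description. Here too an effect of array processing cannot be told apart from the drug. Fos peaked in untreated cells at a mean of 9.72 at 0.5 h and was back at 7.08 at 3 h, and with the drug it was at 11.25 at 1 h and 11.03 at 3 h. Myc was at most 8.07 in untreated cells, at 1 h, and 10.81 with the drug at 3 h. Nr4a1 stayed within the untreated range, at 9.68 with the drug at 3 h and 9.94 in untreated cells at 1 h. Lgr4 declined to 6.57 in untreated cells by 144 h and was already at 6.36 with the drug at 3 h, while Tubb2b was never under 9.81 in untreated cells and was at 8.48 with the drug at 3 h.

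**Figure D5:**
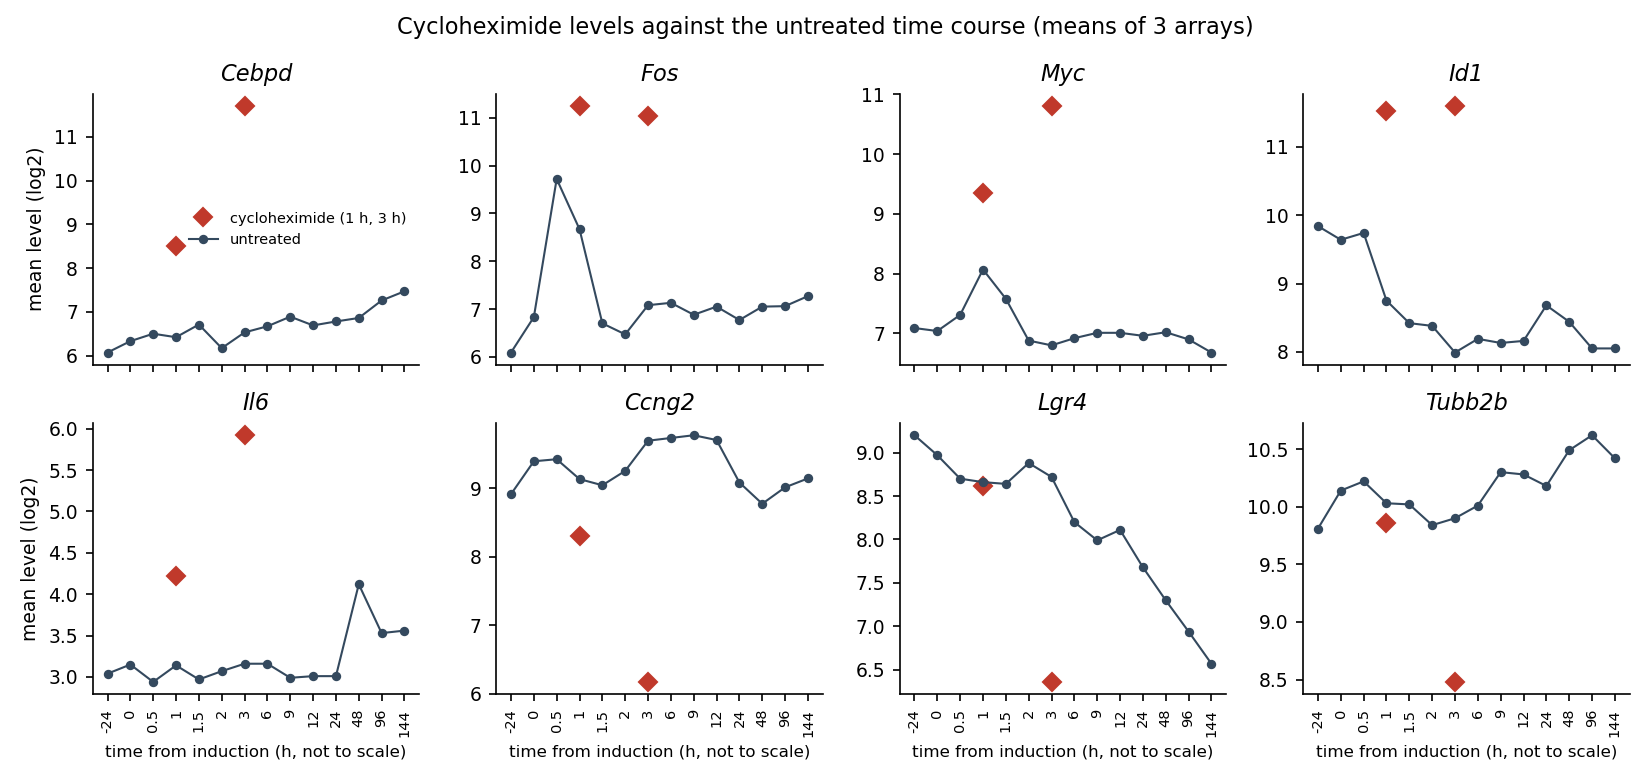
Mean level (log2, 3 arrays) of 8 genes in untreated cells over 14 groups from 24 h before to 144 h after induction (dark line, time axis not to scale) and in cycloheximide-treated cells at 1 h and 3 h (red diamonds). At 3 h the drug-treated means of Cebpd, Fos, Myc, Id1 and Il6 lie above every untreated mean and those of Ccng2, Lgr4 and Tubb2b below every one.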

How the data were processed

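Total RNA from C2C12 cells was hybridised as biotin-labelled cRNA to 48 Affymetrix MOE430v2 arrays, 16 groups of 3. The deposited values are log2 levels made by the authors with RMA, per the submitters' processing notes. Its version and whether all arrays were run together are not given in the sources used here. Of 45101 probe sets, 34945 had 1 gene symbol in the platform annotation, 932 several and 9160 none, and 64 were controls. Symbols of 34741 probe sets were updated through Entrez identifiers. The 48 arrays were quantile-normalized together, and each of 18193 genes was represented by its probe set of highest mean over 48 arrays (1545 on probe sets ending in _s_at or _x_at).

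Comparisons used limma 3.58.1 in R 4.3.3 (lmFit and eBayes), with 1 coefficient per group, 32 residual degrees of freedom, two-sided tests and Benjamini-Hochberg adjustment at 0.05. Errors are standard errors of the fit. The script was tested on simulated data. Replicates were growths of successive passages, per the labels, and same-numbered arrays of both groups deviated together (correlations of 0.36, 0.46 and 0.49), so that the numbers pair the samples. The main test leaves this pairing out, and the replicate block takes it in. The p-values measure the spread between passages of one line. Alternatives were other scalings, the replicate block, other summaries of probe sets, a minimum mean, fewer arrays and each array left out.

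The members and the 44 gene lists were chosen with earlier results of these data known. Genes were named by rule: the 20 risen and 20 fallen of largest difference among called genes whose arrays did not overlap, up to 5 called members per direction of each list, and a short set of early, myogenic and cell cycle genes, of which fewer are printed. Genes with clone names only were counted and not named. Genes with no probe set of a single symbol were not analysed here, and levels were not compared between genes. Promoter windows came from RefSeq on GRCm38.p6.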

Additional observations from a re-analysis of the deposited data

Results flagged for a closer look

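Of the 123 genes named above, 81 had an effect of cycloheximide that differed between 3 h and 1 h (limma interaction, adjusted p under 0.05, on the log2 scale), with a higher effect at 3 h for 50 and a lower one for 31. For the other 42 no such change was called. The effects at both times come from separate sets of arrays, 3 drug-treated and 3 untreated at each time. Many of these genes were named for their difference at 3 h, which the interaction contains, so the counts are a description. An effect can also change because the untreated level changed, as for Fos and Bhlhe40 above.

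Among transcription factors and clock genes, the effect was larger at 3 h by 3.09 for Cebpd, 2.78 for Nfil3, 2.37 for Per1, 2.33 for Atf3, 1.37 for Fos, 0.72 for Jun, 2.31 for Maff, 1.42 for Egr1, 2.81 for Nr4a1, 2.73 for Myc, 1.58 for Klf2, 1.76 for Klf6, 1.65 for Klf9, 1.28 for Klf10, 0.96 for Bhlhe40 and 2.42 for Id4. Among regulators of kinases, of mRNA decay and of stress, it was larger by 2.40 for Sgk1, 1.05 for Dusp2, 1.72 for Dusp16, 0.73 for Dusp8, 1.91 for Errfi1, 2.79 for Noct, 2.17 for Zc3h12c, 0.96 for Zfp36l2, 1.47 for Gadd45g, 1.71 for Gadd45b, 0.87 for Atf4, 1.25 for Mcl1, 1.23 for Sesn1 and 0.90 for Plk2. Among NF-kB genes, secreted signals and their inhibitors, it was larger by 2.11 for Tnfaip3, 2.02 for Rel, 1.60 for Nfkbie, 1.55 for Relb, 3.32 for Ccl2, 2.49 for Ccl7, 1.67 for Il6, 0.92 for Lif, 2.73 for Edn1, 3.20 for Adm, 1.95 for Ccn2, 1.19 for Socs2 and 1.15 for Cish. Among the remaining risen genes, it was larger by 3.82 for Slc10a6, 3.21 for Arrdc2, 1.67 for Tsc22d3, 2.06 for Csrnp1, 2.29 for H2bc18, 1.05 for H1f2 and 0.66 for Odc1.

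Among transcription and cell cycle genes that fell, the effect changed by -2.68 for Ccng2, -2.06 for Klf3, -1.19 for E2f8, -0.89 for E2f3, -0.78 for Mxd4, -0.71 for Mxi1, -0.77 for Mnt, -0.68 for Mef2d and -1.05 for Hey1. Among receptors, membrane proteins and secreted factors that fell, it changed by -2.81 for Sema4c, -2.32 for Lgr4, -1.92 for Snn, -1.81 for Cxcl12, -1.76 for Sema7a, -1.70 for Cemip2, -1.61 for Gper1 and -0.81 for Pdgfa. Among tubulins and genes of the endoplasmic reticulum and of sterol synthesis, it changed by -1.25 for Tubb2b, -1.13 for Tubb4b, -0.90 for Tubb5, -1.58 for Dnajb9, -1.53 for Herpud1, -0.83 for Xbp1 and -1.53 for Sqle. Among the remaining fallen genes, it changed by -1.78 for Mex3a, -1.42 for Snhg4, -1.19 for Snhg3, -1.05 for Rpl12, -1.14 for Dusp4, -1.04 for Bok and -0.81 for Zmat3. Sema4c was called in opposite directions at 3 h and 1 h.

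Groups of 3 arrays are too small for a test of single outlying arrays.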

How the results depend on the processing

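Of the 123 named genes, 113 kept their direction and their side of the threshold at 3 h under the alternatives run, except that 10 dim genes were not in the fit that required a mean of at least 5. On the deposited values 5628 genes rose and 622 fell at 3 h, and 4471 were called at 1 h. Centring on housekeeping genes gave 5750 risen and 544 fallen genes at 3 h, and 1602 calls of a changed effect. Centring on the hybridisation controls, an alternative chosen after seeing the data, gave 4519 risen and 274 fallen genes at 3 h, 758 calls at 1 h, 587 of a changed effect and 3244 for cycloheximide at 3 h against 0 h. With the replicate number as a block (pairing), 5589 genes were called at 3 h. The block gave 1980 calls at 1 h, 1468 for the changed effect and 389 between untreated cells at 3 h and 0 h. Among named genes, the block changed the calls on Myod1 (0.55) and Mdm2 (0.41) and no other. With only the arrays of the groups compared, 276 genes were called at 1 h, 531 for the changed effect and 11 between untreated cells at 3 h and 0 h. With a mean of at least 5 required, 652 genes were called at 1 h, and median centring gave 53 between untreated cells at 3 h and 0 h. The cause of these shifts was not tested, apart from the smaller number of arrays or genes that some settings hold.

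Leaving out 1 array gave 3450 to 3824 calls at 3 h (1933 to 2163 risen, 1498 to 1699 fallen), 768 to 1104 at 1 h, 692 to 936 for the changed effect, 3865 to 4452 for cycloheximide at 3 h against 0 h, and 28 to 72 between untreated cells at 3 h and 0 h. The low of 768 came without the first cycloheximide array at 1 h. The counts between untreated cells at 3 h and 0 h were 28, 40, 50 and 57 without 0 h array 2, 3 h array 1, 3 h array 3 and 0 h array 1.

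Ccnd1 turned to 0.01 as deposited, 0.04 with housekeeping and 0.09 with hybridisation-control centring, none called. Gas5 turned to -0.79 with the mean of its probe sets (adjusted p = 0.00193). Myog turned to 0.06 without untreated array 1 and to 0.09 and 0.15 without cycloheximide arrays 3 and 2, and was -1.04 without cycloheximide array 1, none called. Btg1, Fabp4, Mef2d, Mnt and Snhg1 lost their call under at least 1 alternative. With 3 arrays a group an exact permutation test of a single gene cannot go below p = 0.1, and probe sets near the array median carry little signal over background.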

Other observations

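Several of the larger responses lay outside the rule for named genes and were chosen after their values were seen. Non-coding transcripts were among them. Chaserr, a non-coding RNA that restrains its neighbour Chd2, read 10.24, 10.03 and 10.68 on the cycloheximide arrays, against 6.70, 6.44 and 6.99 on the untreated arrays, a difference of 3.60. Snhg17 read 8.82, 8.56 and 8.52 with the drug and 5.42, 5.10 and 5.45 without (3.31), and Snhg16 10.28, 9.88 and 9.78 with the drug and 6.66, 6.79 and 7.03 without (3.15). These hosts of small nucleolar RNAs stood higher with the drug on all arrays, on the probe set used, whereas Snhg3, on a dim probe set, and Snhg4 stood lower. Other probe sets of Snhg16 and Snhg17 are not given here, and for Gas5 and Snhg1 the direction depended on the probe set.

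Cebpb, the partner of Cebpd, read 11.69, 11.19 and 10.65 with the drug and 7.90, 7.64 and 7.40 without (3.53). Fkbp5, a chaperone partner of the glucocorticoid receptor and a common marker of its activity, read 10.91, 10.82 and 10.72 with the drug and 7.69, 8.02 and 7.61 without (3.04 ± 0.15). At 1 h its difference was -0.10, and the change of the effect was 3.14 (limma interaction, adjusted p = 1.7e-13). Ccnl1, a cyclin of splicing kinases, differed by 3.14.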
